A study of Mus musculus with 6 samples.

Results

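The genes described here encode the proteins of the small, or 40S, subunit of the cytoplasmic ribosome. They were taken by symbol from a table of ribosome footprint density: every row named Rps and a number, with or without a final a or x, together with Rpsa, Rps3a1 and Fau. One further small subunit gene was left out under the rule, and Rps10 was not analysed here. The rule found 30 genes among 22770 rows. All 30 passed the filter for testing, a mean of at least 1 FPKM (a fragment count divided by transcript length and by the size of the library) over the 6 libraries, as did 15578 rows in all. The cells were round spermatids, the haploid germ cells that follow meiosis, from mouse testis. There were 3 wild-type samples and 3 samples with the genotype label Eif5a SKO, which the columns of the table call cKO. What the S or c stands for, the promoter or Cre line used, the age of the mice and the strain are not stated in the labels. EIF5A is a hypusine-carrying translation factor that helps ribosomes through stretches of coding sequence where they slow. The comparison of genotypes asks which mRNAs carried more or fewer footprints when Eif5a was targeted.

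The 40S subunit is built from 18S ribosomal RNA and a set of small, mostly basic proteins. It binds the initiator tRNA, scans the mRNA leader and holds the decoding centre, in a body, a platform and a head that turns as the mRNA moves. Vertebrate ribosomal protein mRNAs typically begin with a cytidine followed by an unbroken pyrimidine tract, the TOP motif, through which growth signalling by mTOR and LARP1 adjusts their translation together. The genes also have many processed pseudogenes, copies of the mRNA inserted elsewhere in the genome.

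The sequences around an annotated start site are shown for some of the genes described below. The tract at the start is the feature by which this family is usually recognised. These genes are a selection, and counts over all windows of the family follow. A further annotated start of Rps24 is not shown. Each line gives 30 bases of the RefSeq promoter table (assembly GRCm38.p6), 10 before the start and 20 from it on, 5′ to 3′ on the strand of the gene, with the longest run of C and T in capitals.
Rps24: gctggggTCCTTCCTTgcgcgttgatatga
Rps25: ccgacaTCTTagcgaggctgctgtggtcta
Rps3: aagggTCgccgcgctgcgcggcgtcattgc
Rps12: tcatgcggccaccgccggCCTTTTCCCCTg
Rps26: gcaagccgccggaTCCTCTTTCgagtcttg
Rps6: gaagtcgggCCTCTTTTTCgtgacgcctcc
Fau: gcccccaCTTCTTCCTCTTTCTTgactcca
Rps18: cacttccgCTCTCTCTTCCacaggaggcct
These windows lie at chr14:24490668-24490697 on the plus strand for Rps24, chr9:44407704-44407733 on the plus strand for Rps25, chr7:99483690-99483719 on the minus strand for Rps3 and chr10:23787190-23787219 on the minus strand for Rps12. They lie at chr10:128626487-128626516 on the minus strand for Rps26, chr4:86857348-86857377 on the minus strand for Rps6, chr19:6057937-6057966 on the plus strand for Fau and chr17:33955646-33955675 on the minus strand for Rps18. The capitals run across the annotated start in Rps24, Fau, Rps6 and Rps18, lie downstream of it in Rps12 and Rps26, and are short in Rps25 and Rps3.

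The promoter table held 26 windows for 22 of the 30 genes. A stretch of at least 5 C or T, counted from a C within 2 bases of the annotated start, was found in 6 genes. It was in 23.1% of their windows against 8.96% of all 32851 windows. The stretch could be part of a longer run that began further upstream, as in Fau, or with a T, as in Rps24. A run of at least 8 anywhere in the 30 bases was found in 8 genes, 30.8% of windows against 11.2%. Annotated starts can miss the used start by a few bases, so an unmatched gene may still have a tract. In the whole window of 300 bases, 250 before the start and 50 from it on, motifs were searched on both strands. CCGGAAG, the core bound by ETS factors, was in 38.5% of windows against 8.86% of all, and GGGCGG, the GC box, was in 57.7% against 35.7%. TGACG was in 46.2% against 20.8%, and the full TGACGTCA, which contains it, was in 7.69% against 1.79%. TATAAA was in 7.69% against 13.6%, and AAGATGGCG was in none of the 26 against 1.40% of all. These matches describe the letters only.

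The libraries were first compared with their labels. Eif5a, with 34.2, 48.8 and 61.9 FPKM in wild type, had 1.84, 1.93 and 2.99 FPKM in SKO, a log2 fold change of -3.90 (adjusted p = 0.00641, limma with Benjamini-Hochberg adjustment). The exact two-sided permutation test for Eif5a gave p = 0.1, the smallest that 3 against 3 samples allow. Relative depth ran from 0.502 to 1 times that of SKO replicate 1. Protein-coding rows held 18.2% to 32.9% of the summed FPKM, lowest in SKO replicate 1 and highest in SKO replicate 2. Because of such shifts each comparison is also given after a TMM-type scaling, in which each library is divided by a factor from its trimmed log ratios to 1 reference, and which moved the median log2 fold change of all tested rows from 0.13 to 0.0028. The 19 tested round spermatid markers summed to 3543 to 6726 FPKM in wild type against 3484 to 7369 FPKM in SKO, a sum carried mostly by Ldhc with means of 3846 and 3711 FPKM. Gene by gene, 7 of the 19 were higher and none lower in SKO without overlap, where 10.9% and 4.78% of all tested rows were. With TMM-type scaling 9 were higher and 2 lower, where 11.6% and 9.85% of all rows were. None passed the test. Their median log2 fold change was 0.51, with 14 above 0 and 5 below. The acrosomal gene Spaca1 had means of 96.4 and 210 FPKM (adjusted p = 0.416, limma). Tnp1, Prm1 and Prm2 went the other way, with log2 fold changes of -0.45, -0.33 and -0.53 (adjusted p = 0.711, 0.859 and 0.661, limma). Markers of testis somatic cells were present as well and differed between genotypes. The 7 Sertoli cell markers in the table summed to 16.6 to 30.5 FPKM in wild type and 71.0 to 96.6 FPKM in SKO. The Leydig cell markers summed to 14.0 to 19.3 and 62.5 to 119 FPKM, and neither sum overlapped between genotypes. Of the 10 tested markers of peritubular, endothelial, macrophage and blood cells, 4 were higher and 4 lower in SKO without overlap, so that their sum, 57.2 to 118 and 49.1 to 70.7 FPKM, mixes both directions. Dcn, of peritubular and stromal cells, had means of 1.11 and 8.96 FPKM and passed the test (adjusted p = 0.047, limma). Acta2, of smooth muscle, had means of 2.93 and 17.2 FPKM and passed with TMM-type scaling (adjusted p = 0.041). Of the 7 Sertoli cell markers 1 also passed, higher in SKO, with TMM-type scaling only. No Leydig cell marker passed with either scaling. The 4 haemoglobin genes had log2 fold changes from -1.53 to -1.28 and did not pass. Spermatocyte markers summed to 189 to 328 and 207 to 451 FPKM, with overlap. Sox9 and Amh, which define Sertoli cells, were not analysed here, and no marker in the table was at 0 in all 6 libraries. The part of these cells in the values of the ribosomal protein genes was not tested. In a bulk sample fewer cells of a type and less RNA per cell cannot be told apart. Footprint density joins the amount of an mRNA with how often and how fast it is translated.

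Round spermatids carried footprints on every one of the 30 genes, but at very unequal density. Rps14, a platform protein, was the densest in each of the 6 libraries, with 137, 142 and 215 FPKM in wild type and 116, 281 and 210 FPKM in SKO. Rps4x, the X-linked copy of a body protein, was the least dense in each, at 0.495 to 1.28 FPKM. Their means over 6 libraries differed 181-fold. Also among the densest were Rps9, a protein of the body shared with bacteria, Rps29 and Rps28, small proteins of the head, and Rps24 of the body. The mean of Rps9 was 103 ± 29.7 FPKM in wild type (SD, n = 3), that of Rps29 was 69.4 ± 18.2 and that of Rps28 was 84.5 ± 18.1. The low end, above Rps4x, included Rps12 and Rps2 with wild-type means of 7.62 ± 2.48 and 8.04 ± 4.78 FPKM. In all, 5 genes had a mean over 100 FPKM, 20 lay between 10 and 100 and 5 lay under 10.

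**Figure D1:**
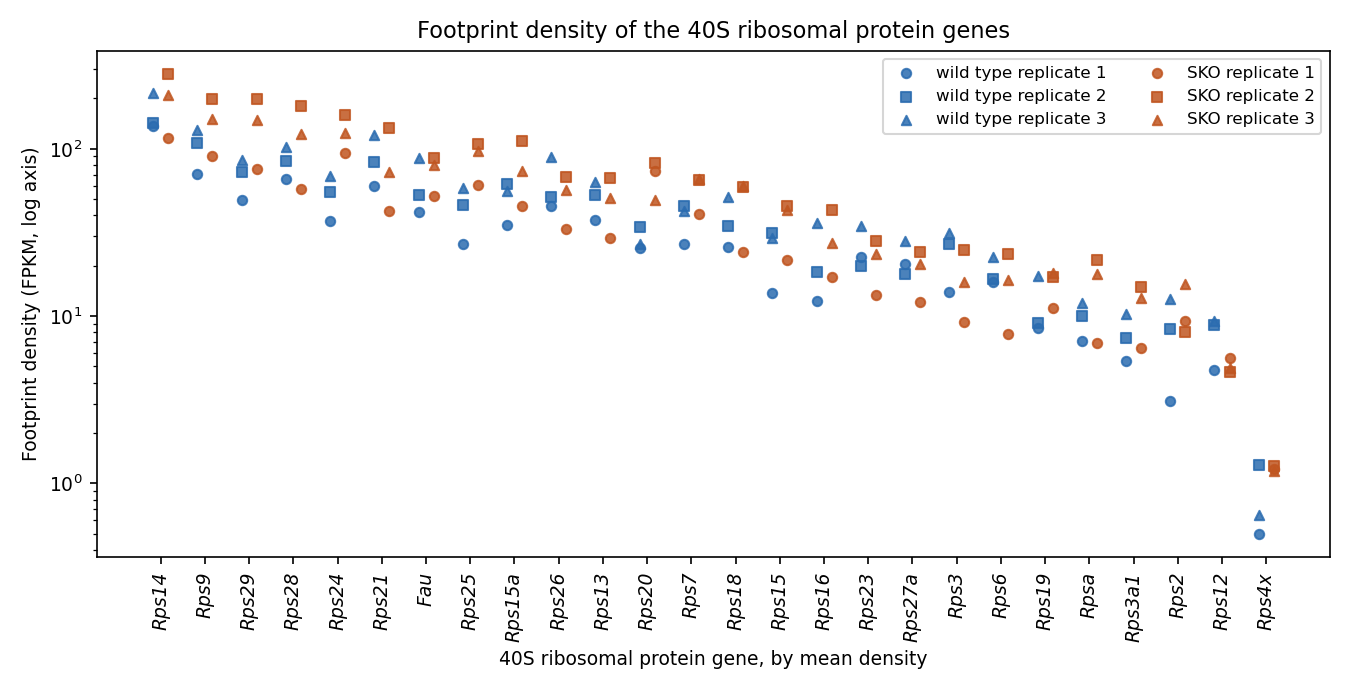
Footprint density (FPKM, log axis) of 26 of the 30 genes in each library, ordered by mean density, with circles, squares and triangles for replicates 1, 2 and 3 and blue for wild type, orange for SKO. Rps14 is highest and Rps4x lowest in every library, and for most genes the colours overlap.

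The order of the genes was kept between libraries. Spearman's correlation of the 30 densities was 0.954 to 0.979 between libraries of the same genotype and 0.872 to 0.976 between genotypes. These are descriptions over genes that share libraries, not tests. Rps24 stood at places 9 to 11 in wild type and 3 to 6 in SKO, and Rps25 at 12 to 13 and 7 to 9. Rps20 stood at 16 to 21 in wild type and 6 to 16 in SKO. Rps26 moved the other way, from places 6 to 12 to places 13 to 14. A place within the family does not depend on how a library is scaled.

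Summed over the family, the 30 genes had 946, 1307 and 1685 FPKM in wild type and 1141, 2433 and 1851 FPKM in SKO. Their share of the FPKM on protein-coding rows was 0.737%, 0.797% and 0.770% in wild type against 0.819%, 0.918% and 0.908% in SKO. The summed density thus overlapped between genotypes, while the share of protein-coding FPKM did not. Set against the FPKM of all rows, the share did overlap. It was below every wild-type library in SKO replicate 1, with 1141 of 766152 FPKM against 1307 of 733760 in wild-type replicate 2. In SKO replicates 2 and 3 it was above every wild-type library. The ratio of the summed 40S genes to the summed 60S genes, those of the large subunit, was 0.807, 0.875 and 0.811 in wild type. In SKO it was 0.838, 0.842 and 0.833, inside the wild-type range. The share of the 60S genes on protein-coding rows did not overlap either, at 0.913%, 0.911% and 0.949% in wild type against 0.978%, 1.09% and 1.09% in SKO. Against the FPKM of all rows it overlapped too, and was lowest in SKO replicate 1.

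Gene by gene, no member of the family passed the test between genotypes, at an adjusted p under 0.05 in limma over all tested rows. With the deposited values 0.128% of all tested rows passed, and with TMM-type scaling 1.02% passed. At an unadjusted p under 0.05, 3 of the 30 genes were higher and none was lower in SKO, where 8.15% and 2.83% of all rows were. With TMM-type scaling 4 were higher and 1 was lower, where 8.9% and 6.71% of all rows were. Without overlap between genotypes, 3 genes were higher and none was lower in SKO (10.9% and 4.78% of all rows), and with TMM-type scaling 4 were higher and 2 lower (11.6% and 9.85%). The median log2 fold change was 0.38 over the 30 genes and 0.13 over all tested rows. With TMM-type scaling the medians were 0.23 and 0.0028. Per library, with the deposited values, the median log2 density of the family exceeded that of all tested rows by 2.70, 2.99 and 3.03 in wild type. In SKO the excess was 2.66, 3.53 and 3.39, with replicate 1 below every wild-type library. The pooled SD of the excess between replicates was 0.353. By sign, 22 genes were above 0 and 8 below with either scaling, where 59.4% of all rows were above 0 with the deposited values and 50.2% with TMM-type scaling. The scaled log2 fold changes ran from -0.70 for Rps3 to 1.06 for Rps24. With 3 samples a group, the standard error of a log2 fold change was between 0.344 and 0.505 for the deposited values. The p-values reflect only the spread between these 6 samples, which may be partly technical.

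**Figure D2:**
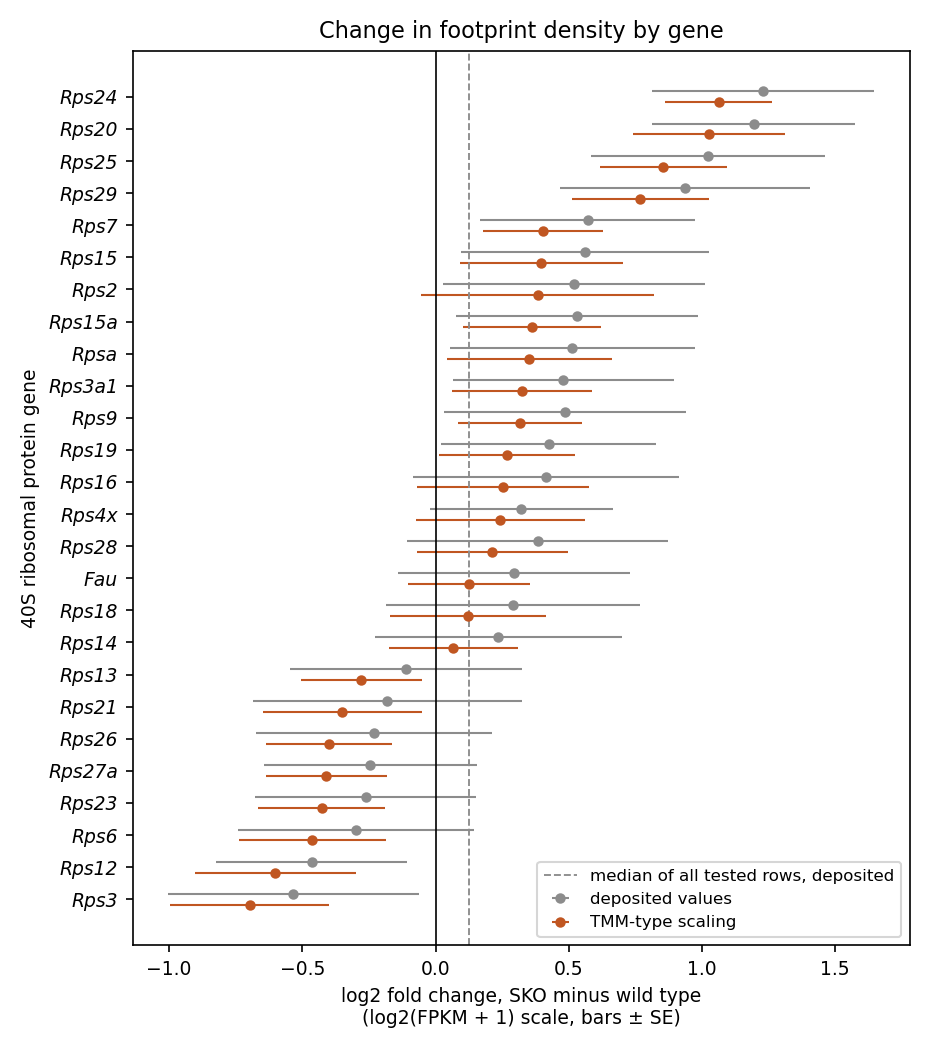
Log2 fold change, SKO minus wild type, of 26 of the 30 genes on the log2(FPKM + 1) scale, for deposited values (grey) and after TMM-type scaling (orange); bars are ± SE and the dashed line is the median of all tested rows, 0.13. Rps24, Rps20, Rps25 and Rps29 lie farthest to the right, and Rps3 and Rps12 farthest to the left.

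Among the proteins at the mRNA entry channel that carry the ubiquitin sites used when ribosomes stall or collide, Rps20 and Rps3 lay at opposite ends of the family. RPS20, in the head, is ubiquitinated by ZNF598 on collided ribosomes. Rps20 had 25.7, 33.9 and 27.0 FPKM in wild type and 73.4, 82.1 and 49.5 FPKM in SKO. Every SKO library was above every wild-type library. The log2 fold change of Rps20 was 1.19 (SE 0.382, 95% confidence interval 0.34 to 2.05, adjusted p = 0.302, limma), and 1.03 after TMM-type scaling (adjusted p = 0.145). Replicate 1 of SKO was the highest after scaling, at 86.5 FPKM against 62.7 and 46 in the others, so the SKO libraries differed among themselves.

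RPS3 lines the entry channel, and both RPS3 and RPS2 are ubiquitinated by RNF10. Rps3 had 13.9, 27.0 and 31.3 FPKM in wild type and 9.17, 24.7 and 16.0 FPKM in SKO. The genotypes overlapped, and the log2 fold change was -0.53 (SE 0.471, adjusted p = 0.713, limma). After TMM-type scaling Rps3 was -0.70 (SE 0.299, unadjusted p = 0.0497, adjusted p = 0.319), with overlap remaining through wild-type replicate 1. Rps2 had 3.09, 8.40 and 12.6 FPKM in wild type and 9.29, 8.03 and 15.6 FPKM in SKO, with a log2 fold change of 0.52 (adjusted p = 0.739, limma). The wild-type libraries of Rps2 differed more among themselves than the 2 genotypes did. Within each library, the ratio of Rps20 to Rps3 was 1.84, 1.26 and 0.862 in wild type against 8.0, 3.32 and 3.09 in SKO. That ratio is free of the scaling of a library, and since the pair was chosen for its difference it is a description without a test.

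In the rest of the head, Rps25 and Rps29 had the highest log2 fold changes and Rps12 the lowest, none of them past the test. RPS25 sits by the tRNA exit site and is needed for initiation at several viral internal ribosome entry sites. Rps25 (chromosome 9) had 27.0, 46.1 and 58.1 FPKM in wild type and 60.5, 107 and 96.9 FPKM in SKO. Every SKO library of Rps25 was above every wild-type library, though the lowest SKO and the highest wild-type value were close. The log2 fold change of Rps25 was 1.02 (SE 0.440, adjusted p = 0.440, limma), and 0.85 (SE 0.240, adjusted p = 0.147) after TMM-type scaling. RPS29 is a small zinc-binding protein of the head that is mutated in some families with Diamond-Blackfan anaemia. Rps29 had 49.7, 73.1 and 85.5 FPKM in wild type and 76.0, 198 and 148 FPKM in SKO. The deposited values of Rps29 overlapped, through SKO replicate 1, and gave a log2 fold change of 0.94 (SE 0.470, adjusted p = 0.505, limma). Scaled, they were 61.2, 78.9 and 76.8 against 89.6, 151 and 138, without overlap, and gave 0.77 (SE 0.257, adjusted p = 0.209).

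RPS12 forms part of the beak of the head. Rps12 had 4.77, 8.78 and 9.29 FPKM in wild type and 5.61, 4.65 and 4.91 FPKM in SKO. Wild-type replicate 1 lay among the SKO values, so the genotypes overlapped, and the log2 fold change was -0.47 (SE 0.359, adjusted p = 0.674, limma). Among the other head proteins Rps15, Rps16, Rps18, Rps19 and Rps28 had log2 fold changes between 0.29 for Rps18 and 0.56 for Rps15, and their genotypes overlapped in every case. RPS15, RPS16 and RPS18 reach towards the decoding site with their tails, and RPS19 is a further Diamond-Blackfan anaemia protein. Over the 13 head genes analysed the median log2 fold change was 0.38, and over the 17 genes of body and platform it was 0.32.

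In the body, Rps24 had the largest log2 fold change of the family with the deposited values, close to that of Rps20, which was larger without wild-type replicates 1 or 2 or SKO replicate 3 and as a ratio of means (2.37-fold). RPS24 is needed to process the 18S precursor and is another protein mutated in Diamond-Blackfan anaemia. The gene lies on chromosome 14 (GRCm38, positions 24490678 to 24496960). Rps24 had 37.2, 54.8 and 68.6 FPKM in wild type and 94.7, 159 and 124 FPKM in SKO. All 3 SKO libraries were above all 3 wild-type libraries, with means of 53.5 ± 15.7 and 126 ± 32.1 FPKM (SD, n = 3), 2.35-fold apart. The log2 fold change was 1.23 (SE 0.417, 95% confidence interval 0.29 to 2.17, adjusted p = 0.324, limma). After TMM-type scaling the values of Rps24 were 45.9, 59.2 and 61.6 against 112, 121 and 115 FPKM. The SKO libraries then lay close together and well above wild type, with a log2 fold change of 1.06 (SE 0.202, adjusted p = 0.0634). Rps24 passed the threshold under 2 other scalings, with adjusted p = 0.0255 after quantile normalization (log2 fold change 0.92) and adjusted p = 0.0158 after equal sums over protein-coding rows (log2 fold change 1.00). Those 2 scalings called many more rows, 446 and 516 of the 15578 tested, and no other gene of the family. Over all alternatives its log2 fold change stayed between 0.92 and 1.43 and its adjusted p between 0.0158 and 0.630. Relative to Rps14, the ratio of Rps24 was 0.271, 0.386 and 0.318 in wild type against 0.814, 0.566 and 0.591 in SKO. Relative to Rps3 it was 2.68, 2.03 and 2.19 in wild type against 10.3, 6.44 and 7.75 in SKO. Rps24 and Rps3 had the largest and smallest log2 fold changes of the family, so their ratio describes that difference and is not a test.

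**Figure D3:**
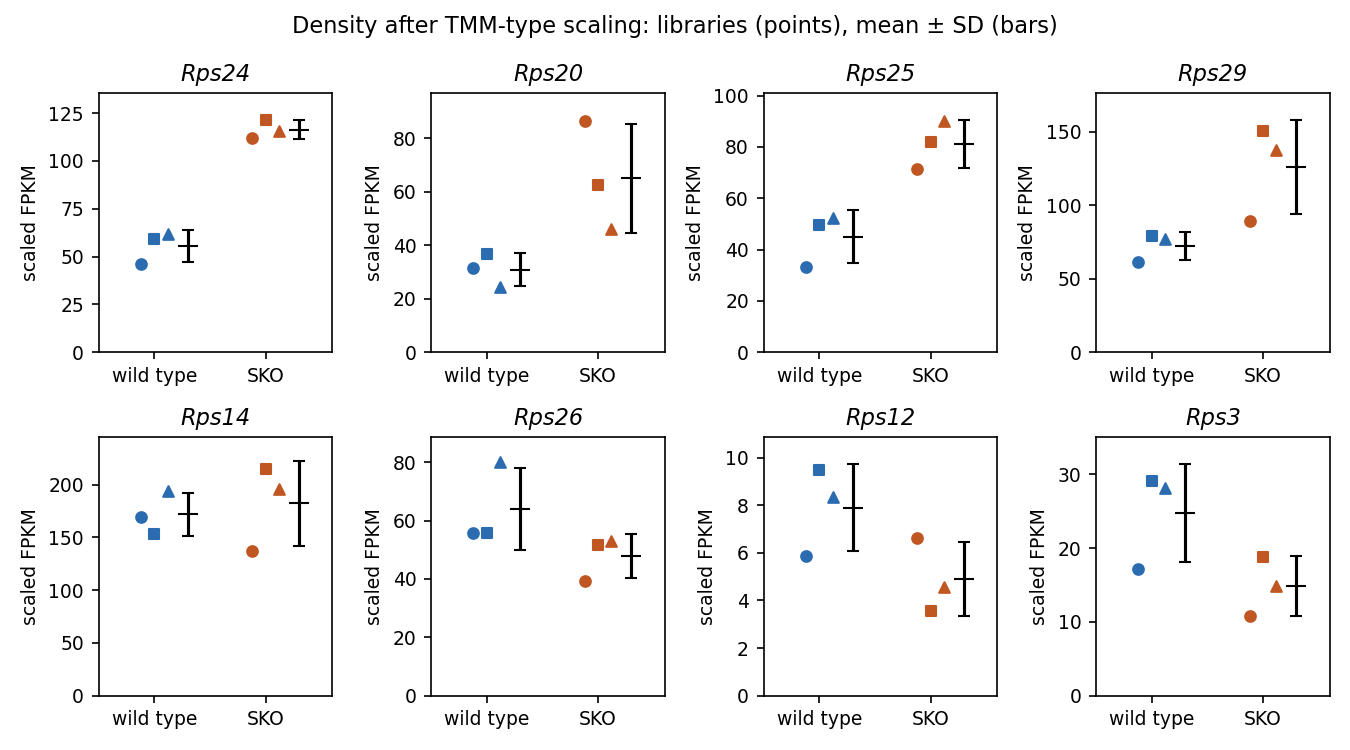
Scaled FPKM of 8 genes by library (circles, squares and triangles are replicates 1, 2 and 3), with the mean and SD of each genotype as bars, each axis starting at 0. Rps24, Rps20, Rps25 and Rps29 do not overlap between genotypes and are higher in SKO, Rps26 does not overlap and is lower, and Rps14, Rps12 and Rps3 overlap.

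Rps26 pointed the other way. RPS26 lies on the platform where mRNA leaves the subunit, and can be released from the ribosome under stress in yeast. Rps26 had 45.4, 51.5 and 89.0 FPKM in wild type and 33.2, 67.4 and 56.9 FPKM in SKO, with overlap and a log2 fold change of -0.23 (adjusted p = 0.896, limma). Scaled, the values were 55.9, 55.6 and 80.0 against 39.2, 51.5 and 52.9 FPKM. The highest SKO library was then just below the lowest wild-type library, and the log2 fold change was -0.40 (adjusted p = 0.475). RPS6, the target of S6 kinase downstream of mTOR, gave a similar picture with overlap. Rps6 had 16.0, 16.6 and 22.4 FPKM in wild type and 7.81, 23.6 and 16.3 FPKM in SKO, and its log2 fold change was -0.30 (adjusted p = 0.860, limma). RPSA is also known as the laminin receptor. Rpsa had 7.08, 10.0 and 11.9 FPKM in wild type and 6.92, 21.6 and 17.7 FPKM in SKO, and its log2 fold change was 0.51 (adjusted p = 0.721, limma). Both SKO replicates 2 and 3 were above wild type and replicate 1 was below it.

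Other body and platform genes did not separate the genotypes. Rps14 was 165 ± 43.7 FPKM in wild type against 202 ± 82.5 FPKM in SKO, with a log2 fold change of 0.24 (adjusted p = 0.899, limma). Rps9, Rps7, Rps15a and Rps3a1 had log2 fold changes between 0.48 for Rps3a1 and 0.57 for Rps7. Rps13, Rps21 and Rps23, the last of which lies at the decoding centre, were at -0.11, -0.18 and -0.26. All of these overlapped between genotypes with either scaling. Counted by ancestry, the 15 proteins with bacterial relatives had a median log2 fold change of 0.49 and the 15 without had 0.32, and each set held genes of both signs.

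The family includes 2 proteins made as fusions. RPS27A is cut from a precursor that starts with ubiquitin, and FAU starts with the ubiquitin-like protein FUBI. Rps27a had 20.5, 17.8 and 28.2 FPKM in wild type and 12.1, 24.2 and 20.5 FPKM in SKO, with a log2 fold change of -0.25 (adjusted p = 0.873, limma). After TMM-type scaling the values were 25.2, 19.2 and 25.3 against 14.2, 18.5 and 19.0 FPKM, lower in SKO by a narrow margin without overlap, with a log2 fold change of -0.41 (adjusted p = 0.442). Fau had 41.9, 53.0 and 88.3 FPKM in wild type and 51.9, 87.5 and 80.5 FPKM in SKO, with a log2 fold change of 0.29 (95% confidence interval -0.68 to 1.27, adjusted p = 0.859, limma).

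RPS4X is a body protein encoded on the X chromosome, which is silenced during meiosis in the male and remains largely repressed afterwards. Rps4x had 0.495, 1.28 and 0.649 FPKM in wild type and 1.22, 1.26 and 1.19 FPKM in SKO. The mean of Rps4x over the 6 libraries, 1.02 FPKM, was only just over the filter. Its wild-type mean of 0.808 FPKM lay under 1 and its SKO mean was 1.22, so the gene was tested only through SKO. It still enters the counts and medians of the family. The genotypes overlapped, with a log2 fold change of 0.32 (adjusted p = 0.779, limma), which on the log2(FPKM + 1) scale understates the change of a gene this low. Rps4l, an autosomal copy outside the rule, had 27.9, 34.4 and 70.4 FPKM in wild type and 30.3, 87.1 and 73.5 FPKM in SKO. It was 26.9 to 108 times as dense as Rps4x in wild type and 24.9 to 68.9 times in SKO. The genotypes overlapped for Rps4l too (log2 fold change 0.50, adjusted p = 0.776, limma).

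Reads of these short, conserved genes can match pseudogenes, and how the authors' counting placed such reads is not stated in the labels. The table held 60 named pseudogene rows for 19 of the 30 genes, of which 49 were tested, and none for 11 genes. Rpsa had the most, 9. For 5 genes the densest pseudogene row was above the gene itself, led by Rps13-ps2 at 154% of Rps13 and Rps26-ps1 at 137% of Rps26. The others were Rps16-ps2, Rps27a-ps2 and Rps6-ps4 at 128%, 126% and 114% of their parents. Over the 19 genes the densest pseudogene row had a median of 65.0% of its parent. The level of these genes is uncertain to that extent. The 2 gene copies Rps3a2 and Rps3a3 had 87.9% and 66.1% of the density of Rps3a1.

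The pseudogene rows followed their parents between genotypes. With TMM-type scaling 42 of 49 tested rows had the sign of the parent, and Spearman's correlation of the fold changes was 0.833, a description across rows that share libraries and possibly reads. Rps19-ps1 and Rps19-ps2 had the same mean, fold change and p, and both are counted. Rps24-ps3 had 26.4, 35.6 and 49.3 FPKM in wild type and 67.9, 131 and 88.5 FPKM in SKO, 74.0% of the density of Rps24. Its log2 fold change was 1.34 (adjusted p = 0.302, limma), and 1.17 (adjusted p = 0.0568) after scaling. Adding the pseudogene rows to Rps24 gave a log2 fold change of 1.29 (adjusted p = 0.320, limma) for the sum, close to that of the gene alone, and 1.12 (adjusted p = 0.0601) after scaling. Rps25-ps1 had 24.0, 31.2 and 44.0 FPKM in wild type and 39.1, 64.0 and 54.9 FPKM in SKO, with overlap, and the sum for Rps25 was 0.89. No pseudogene row passed the test with either scaling. For Rps10, which was not analysed here, 2 pseudogene rows had values. Rps10-ps1 had 39.2, 55.5 and 81.3 FPKM in wild type and 20.7, 39.5 and 26.5 FPKM in SKO, with a log2 fold change of -0.98 (adjusted p = 0.45, limma). Rps10-ps2 was 61.8 ± 26.7 and 29.8 ± 12.2 FPKM, with a log2 fold change of -1.03 (adjusted p = 0.465, limma). After scaling the adjusted p of the pair was 0.0709 and 0.0953. Whether these reads came from Rps10 itself was not tested.

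**Figure D4:**
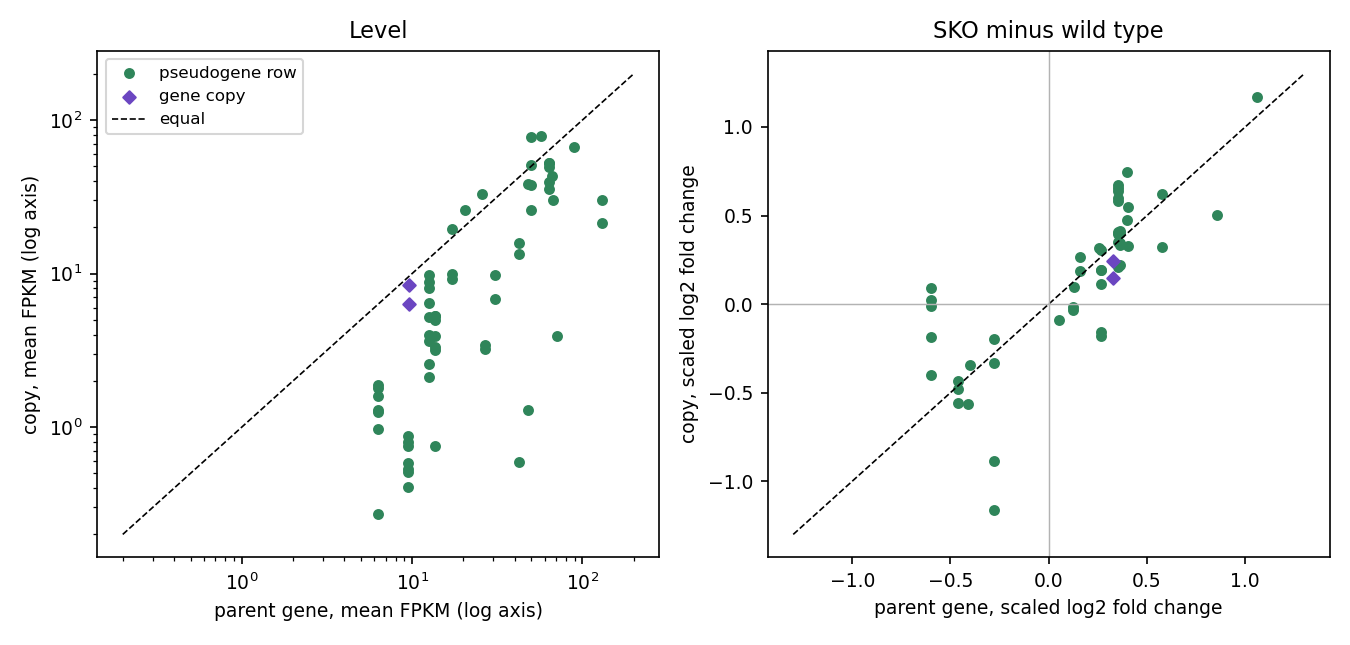
Left, mean FPKM of each copy against that of its parent gene (log axes); right, log2 fold change, SKO minus wild type, of copy against parent after TMM-type scaling. Green points are pseudogene rows, all 60 on the left and the 49 tested on the right. Purple diamonds are the gene copies Rps3a2 and Rps3a3, and the dashed line is equality. Most copies lie below the line on the left, and 42 of 49 pseudogene rows have the parent's sign on the right.

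Introns of ribosomal protein genes host many small nucleolar RNAs, which guide modification of ribosomal RNA. By RefSeq annotation, 13 of the 30 genes overlapped 27 other genes, among them 19 snoRNA genes in 10 of the family, and 7 of the 27 had a row of their own. Snhg9, a snoRNA host that overlaps Rps2, had 10.1, 20.9 and 12.6 FPKM in wild type and 98.1, 31.6 and 103 FPKM in SKO. All SKO libraries of Snhg9 were above wild type, with a log2 fold change of 2.22 (adjusted p = 0.179, limma). Snora78, which also overlaps Rps2, had 101, 105 and 0 FPKM in wild type and 319, 687 and 310 FPKM in SKO. Clhc1, a protein-coding gene that overlaps Rps27a, lay the other way without overlap. Clhc1 had 4.68, 5.28 and 10.7 FPKM in wild type and 1.11, 2.20 and 1.11 FPKM in SKO, with a log2 fold change of -1.63 (adjusted p = 0.190, limma), and -1.75 (adjusted p = 0.0527) after scaling. The rows of Snord15a, Ccdc84 and Gm5922, which overlap Rps3, Rps25 and Rpsa, overlapped between genotypes. snoRNAs are not translated, and where in these genes the fragments lay was not analysed here.

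The neighbours of the family in the ribosome were compared from lists of related genes. Of the 44 tested 60S ribosomal protein genes none passed the test either, and their median log2 fold change was 0.47, against 0.38 for the 40S genes and 0.13 for all rows. Rpl32, with the smallest p among them, was 19.4 ± 4.72 FPKM in wild type against 55.2 ± 20.2 FPKM in SKO (adjusted p = 0.281, limma). The 31 tested mitochondrial small subunit proteins, which serve another ribosome, had a median of 0.21. Mrps33 was 5.20 ± 3.57 and 16.0 ± 5.10 FPKM (adjusted p = 0.285, limma). Among 43 tested factors that assemble and export the 40S subunit, the median was 0.13, the same as for all rows. Utp23, a factor of the early 18S precursor complex, was 6.79 ± 1.5 FPKM in wild type against 2.65 ± 1.78 FPKM in SKO (adjusted p = 0.337, limma). Nop56, a core protein of box C/D snoRNPs, was 3.97 ± 1.33 and 9.66 ± 3.47 FPKM (adjusted p = 0.354, limma).

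Proteins that act on the finished subunit had medians near that of all rows. The 13 tested scaffold, dormancy and ubiquitin factors that bind the 40S subunit had a median of 0.077. Rack1, the scaffold on the head that is counted with the subunit in many structures, had 7.13, 10.7 and 15.4 FPKM in wild type and 4.38, 14.5 and 11.5 FPKM in SKO, with a log2 fold change of -0.20 (adjusted p = 0.924, limma). Serbp1, which occupies the mRNA channel of idle ribosomes, was 65.3 ± 23.3 and 86.1 ± 30.7 FPKM. The 21 tested S6 kinase and TOP mRNA regulators had a median of 0.037. Rps6ka3 and Eif4ebp1 had the smallest p there, with adjusted p = 0.457 and 0.507 in limma. No gene of any of these lists passed the threshold with either scaling. By comparison, the Sertoli and Leydig cell markers had median log2 fold changes of 0.95 and 1.63.

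**Figure D5:**
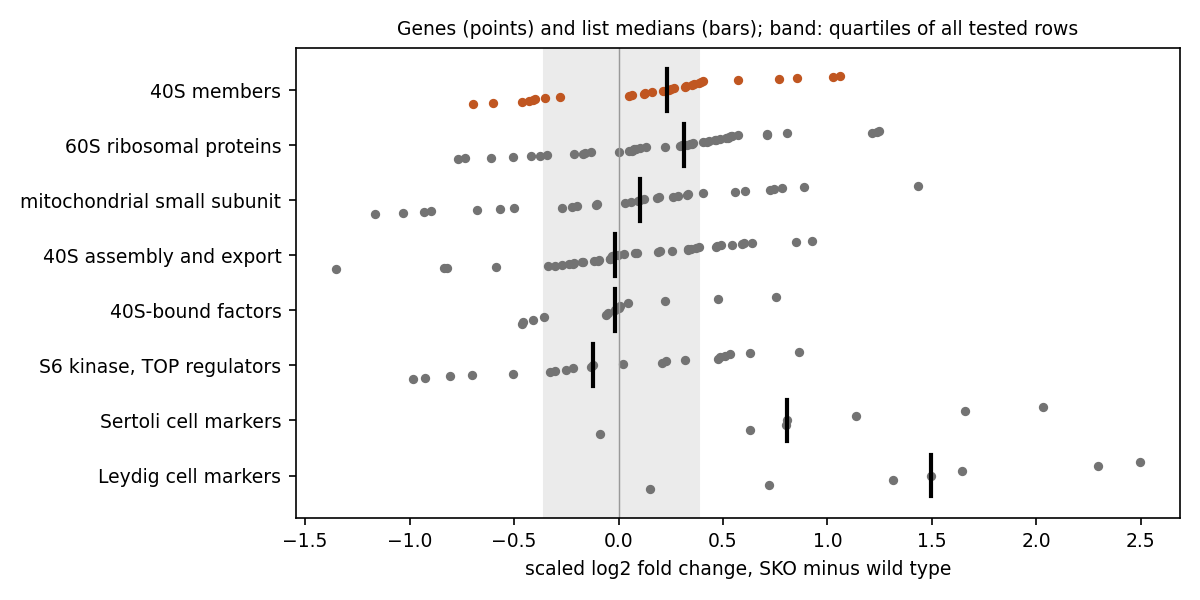
Log2 fold change after TMM-type scaling, SKO minus wild type, of each tested gene (points) in the 40S family (orange) and 7 other lists (grey), with the median of each list as a bar; the shaded band holds the middle quartiles of all tested rows. The 40S and 60S medians, 0.23 and 0.31, lie inside the band, and the Sertoli and Leydig medians, 0.81 and 1.5, lie to its right.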

How the data were processed

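The deposited values are FPKM from the authors, 1 per gene row and library. No counts were used. Per the submitters' processing notes, the build was mm10 and the tools included STAR, Bowtie2, Cufflinks and cutadapt, without stated roles. The annotation used, and how reads that map to several places were handled, is not given in the sources used here, which bears on genes with pseudogenes. Absolute depth is unknown, so no counting interval is given. Per the labels' protocols, cells were lysed with cycloheximide and digested with RNase I, and ribosomes were pelleted through sucrose. The series design text describes an accessibility assay and mentions 3 mice a group, with cells sorted. Samples were grouped by the genotype label.

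Tested rows had an average of 1 FPKM or more over the 6 libraries. After log2(FPKM + 1), SKO was set against wild type in limma 3.58.1 under R 4.3.3 (lmFit and eBayes, trended prior). Tests were two-sided, p-values were adjusted by Benjamini-Hochberg over the 15578 rows, and 0.05 was the threshold. Fold changes on this scale understate the change of low genes. TMM-type scaling left out, at either end, 0.3 of the log ratios and 0.05 of the mean levels. The fit was tested on simulated data whose spread between samples was set below that typical of these libraries. That run does not show what the test can find at the real spread. Coordinates are RefSeq's for GRCm38, found by symbol for all 30 genes.

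The genes and lists were chosen with earlier results of these data known. All 30 genes of the family enter every count, sum and median. A few genes are not reported here by name, and 26 of the 30 are. Among these, named in full are those of the 6 highest and 4 lowest in mean, the 3 largest and 3 smallest log2 fold changes and genes chosen by role, and, in other lists, the genes past the threshold or the 2 with the smallest p. The other genes named with values, among them Rps25-ps1, Serbp1, the Rps10 pseudogenes, Snhg9, Clhc1, Ldhc, Spaca1 and the other cell markers, were chosen after their values were seen. Alternatives changed the pseudocount (0.1 or 5), the filter (none, or an average of 5 FPKM), the scaling (TMM-type, quantile, equal sums over all rows or over protein-coding rows) and the trend. Others blocked on the replicate number or omitted 1 library at a time. Adding pseudogene rows to their parents was chosen after seeing the data.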

Additional observations from a re-analysis of the deposited data

How the results depend on the processing

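The number of tested rows past the threshold, 20 with the deposited values, was 4 with a pseudocount of 5, 5 without a filter, 86 with a mean of at least 5 FPKM, 159 with TMM-type scaling (also with pseudogene rows added to their parents, chosen after seeing the data), 446 after quantile normalization and 516 after equal sums over protein-coding rows. Omitting 1 library from the deposited values gave between 4 and 31 rows: 6, 10 and 4 without wild-type replicates 1, 2 and 3, and 31 and 13 without SKO replicates 2 and 3. With TMM-type scaling it gave 8 and 4 without wild-type replicates 2 and 3 and 10 and 13 without SKO replicates 1 and 3. In these fits the pair left is assumed to vary like the other group. The causes were not tested. The count of 40S genes past the threshold was 0, and 1 (Rps24) after quantile normalization and after equal sums over protein-coding rows.

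The median of the 40S genes stayed above that of all rows, by 0.0932 to 0.442 when 1 library was left out. Of 641 log2 fold changes of the 26 genes named, 18 reversed. Without 1 library, the deposited values gave -0.044 to 0.59 for Rps14, -0.37 to 0.21 for Rps13, -0.60 to 0.22 for Rps21, -0.47 to 0.035 for Rps23, -0.44 to 0.062 for Rps26, -0.44 to 0.032 for Rps27a and -0.63 to 0.11 for Rps6. With TMM-type scaling, Rps14 was -0.014, -0.088 and -0.0063 without wild-type replicate 2, SKO replicate 2 and SKO replicate 3. Without wild-type replicate 1 Rps18 was -0.00025 and Rps2 was -0.022. Rps18 was also -0.097 without SKO replicate 3 and Rps28 was -0.022 without SKO replicate 2. Rps14 was -0.14 after quantile normalization. The other 16 genes kept their direction in every alternative run, among them Rps24, Rps20, Rps25, Rps29, Rps3 and Rps12. Rps4x, also counted there, passed the filter in only 16 of 25 alternatives.

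The labels state no pairing by replicate number, and the deviations of same-numbered samples correlated at 0.0926, 0.000158 and 0.0243. With 3 samples a group such values cannot exclude a pairing. With the replicate number as a block 5 rows passed, and 4 with the block and TMM-type scaling, none of them a 40S gene. Absolute depth is unknown, so what it limits could not be computed.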
